A study of Mus musculus with 8 samples.

Results

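The HOX genes are the homeobox genes of the 4 mouse Hox clusters, taken here as every gene whose symbol is Hox followed by a cluster letter from a to d and a number. They came to 39 of the 23284 genes counted, with 11 in Hoxa, 10 in Hoxb, 9 in Hoxc and 9 in Hoxd. Their level was measured by RNA sequencing in preSC, which are cultured mouse neuroendocrine cells of the lung at a precancerous stage. Both groups carried the genotype written as Chga-GFP;Rblox/lox;p53lox/lox;p130lox, on a 129/SvJ and C57BL/6 background. This genotype combines conditional alleles of the tumour suppressors Rb, p53 and p130 with a green fluorescent reporter of the neuroendocrine gene Chga. The 4 MaxKO libraries came from polyclonal cells given a guide RNA against Max, and the 4 Ctrl libraries from polyclonal cells given a control guide. All cells were selected with puromycin and expanded, without further treatment. Polyclonal cells can hold a mixture of edited and unedited alleles, and the labels do not give the share that was edited. Nothing in them ties the 4 libraries of a group to separate cultures, and p-values then rest on a spread between libraries that may be technical.

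HOX proteins are transcription factors that bind DNA through a homeodomain, usually together with PBX and MEIS proteins. Genes with the same number in different clusters are paralogs, and the number follows the order of the genes along the chromosome. In the embryo, low-numbered (anterior) genes are switched on first and nearest to the head, and high-numbered (posterior) genes later and nearer to the tail. Retinoic acid switches on anterior genes, Polycomb complexes keep silent HOX genes off, and MLL complexes keep active ones on. In the embryonic lung, Hoxa5 and several Hoxb genes are known for their roles in the mesenchyme. MAX is the partner through which MYC proteins bind DNA at the E-box CACGTG.

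Each library had between 13711278 and 19804949 reads in genes. A gene without a read in all 8 libraries together could have had up to 0.0226 CPM (3 reads; CPM are read counts scaled to the library's total in genes with TMM factors), a limit that covers counting error only. Max mRNA lay between 42.2 and 68.0 CPM in MaxKO and between 61.9 and 75.1 CPM in Ctrl, and the difference missed the threshold (log2 fold change -0.37, edgeR quasi-likelihood adjusted p = 0.0955). A guide edits the gene, and transcripts of an edited gene can persist, so Max mRNA checks the labels only weakly. Controls 3 and 4 stood apart from controls 1 and 2 by more reads outside exons (23.3% and 23.4% against 18.5% and 18.6%, with 20.5% to 21.5% in MaxKO). The 12 neuroendocrine markers, among them Chga, included none under 1 CPM in every library and summed to 8049 to 8706 CPM in MaxKO and 7553 to 9392 CPM in Ctrl. Markers of other cells were mostly absent. Under 1 CPM in every library were 7 of 10 fibroblast markers (among them Col1a1, Col1a2, Col3a1 and Thy1, with Lum at 0), 8 of 9 haematopoietic, 6 of 8 endothelial and 7 of 11 other lung epithelial markers.

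Nearly all HOX RNA in preSC came from the Hoxb cluster. Of 49701 reads in HOX genes, 49651 lay in Hoxb, and the other 3 clusters held 50 reads together, or 0.101% (exact 95% binomial interval 0.0747% to 0.133%, counting error only). Hoxa held 17 reads over its 11 genes, Hoxc 24 over 9 and Hoxd 9 over 9. Within Hoxb, the active stretch ran from Hoxb2 to Hoxb8, which took 49562 reads, with Hoxb9 at its edge (84 reads). On either side the reads stopped, with 5 for Hoxb1 and none for Hoxb13.

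**Figure D1:**
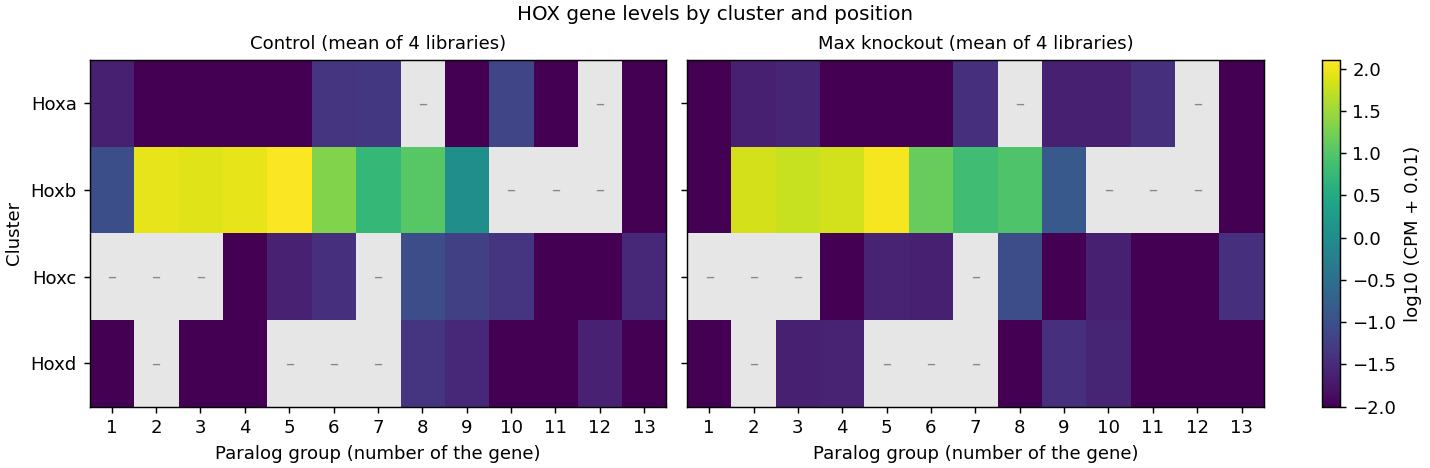
Mean level of each HOX gene by cluster (rows) and paralog group (columns) in the 4 Ctrl and the 4 MaxKO libraries, as log10 of CPM plus 0.01, with grey cells where the mouse has no such gene. In both groups the only bright cells are Hoxb2 to Hoxb8, with Hoxb9 between them and the dark cells.

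Outside Hoxb2 to Hoxb9, 31 HOX genes remained, and their median was 1 read over all 8 libraries. No read was counted for 10 of them, namely Hoxa4, Hoxa5, Hoxa13, Hoxb13, Hoxc4, Hoxc11, Hoxc12, Hoxd1, Hoxd11 and Hoxd13. For comparison, 17.9% of all genes in the files had no read. Hoxa5, the HOX gene best known from lung mesenchyme, was thus not detectable at this depth in either group. The highest of the 31 was Hoxc8, a posterior gene of the trunk, with 10 reads, of which 5 were in MaxKO and 5 in Ctrl. Hoxa10 and Hoxb1 had 5 reads each and Hoxa7 had 4. All 5 reads of Hoxb1 were in Ctrl, 4 in library 3 and 1 in library 4, too few to compare the groups. The paralog groups from 2 to 8 were therefore each held up by a single gene, and that gene took 99.1% of the reads of its group for Hoxb8, 99.5% for Hoxb7 and 99.8% or more for Hoxb2 to Hoxb6. Groups 10, 11, 12 and 13 had 9, 2, 1 and 3 reads in all libraries together.

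Within the active stretch Hoxb5 and Hoxb2 were highest and Hoxb7 to Hoxb9 lowest. Divided by the exon length of the RefSeq-matched transcripts, which come from another build than the counts, Hoxb5 was highest in Ctrl at 63.6 ± 5.46 CPM per kb (SD, n = 4). It was followed by Hoxb2 at 54.9 ± 2.03, Hoxb4 at 34.8 ± 4.14, Hoxb3 at 22.6 ± 1.42 and Hoxb6 at 16.2 ± 5.76 CPM per kb. Hoxb7 (4.23 ± 1.31) and Hoxb8 (4.18 ± 2.12) came next, and Hoxb9 was at 0.431 ± 0.286 CPM per kb. Neighbours in this order overlapped across libraries for Hoxb3 and Hoxb6 (21.1 to 24.5 against 9.17 to 22.5 CPM per kb) and for Hoxb7 and Hoxb8. Hoxb5 did not overlap Hoxb2, which spanned 53.0 to 57.4 CPM per kb. In MaxKO the order was the same, from Hoxb5 at 57.5 ± 3.96 and Hoxb2 at 41.9 ± 1.96 down to Hoxb8 at 3.53 ± 0.364 CPM per kb (SD, n = 4). In RefSeq the span of Hoxb3 contains Hoxb4, the antisense RNA Hoxb3os overlaps Hoxb2 and Hoxb3, and Hoxb5os overlaps Hoxb5 and Hoxb6. The counting is not stated to use strand, so sense and antisense reads of Hoxb2, Hoxb3, Hoxb5 and Hoxb6 cannot be told apart.

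The upstream sequences of Hoxb1, Hoxb4 and Hoxb8 are shown because they stand for a silent, a strongly and a weakly expressed gene of the active cluster, and that of Hoxd10 because it holds the E-box that MAX binds but the gene was silent. Each run is the 250 bases before the transcript start in RefSeq (build GRCm38.p6, read on the gene's strand, 5′ to 3′), with every CANNTG, the general E-box, in capitals. All 4 lie on the plus strand, Hoxb1 at chr11:96365508-96365757, Hoxb4 at chr11:96318017-96318266, Hoxb8 at chr11:96281655-96281904 and Hoxd10 at chr2:74691641-74691890.
Hoxb1: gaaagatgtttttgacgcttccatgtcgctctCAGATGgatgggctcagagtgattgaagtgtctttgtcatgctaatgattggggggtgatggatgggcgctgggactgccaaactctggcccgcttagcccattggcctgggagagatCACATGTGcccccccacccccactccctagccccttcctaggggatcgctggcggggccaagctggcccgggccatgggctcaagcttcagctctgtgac
Hoxb4: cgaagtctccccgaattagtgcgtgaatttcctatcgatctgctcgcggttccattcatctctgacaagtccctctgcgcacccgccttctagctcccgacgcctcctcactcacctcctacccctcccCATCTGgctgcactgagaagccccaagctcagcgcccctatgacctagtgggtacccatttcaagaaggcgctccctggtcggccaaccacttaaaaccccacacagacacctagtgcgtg
Hoxb8: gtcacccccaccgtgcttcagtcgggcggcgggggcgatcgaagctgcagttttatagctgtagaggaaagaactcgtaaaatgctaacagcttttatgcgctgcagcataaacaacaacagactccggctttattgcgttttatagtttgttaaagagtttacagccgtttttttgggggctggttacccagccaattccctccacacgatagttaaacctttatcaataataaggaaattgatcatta
Hoxd10: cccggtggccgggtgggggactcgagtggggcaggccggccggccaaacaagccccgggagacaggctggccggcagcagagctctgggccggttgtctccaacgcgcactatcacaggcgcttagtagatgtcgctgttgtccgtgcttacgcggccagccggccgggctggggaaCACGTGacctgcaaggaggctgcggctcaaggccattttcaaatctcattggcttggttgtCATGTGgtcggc
The promoter table matched 22 of the 39 HOX genes, with 24 windows, and Hoxb1, Hoxb4 and Hoxb8 were the Hoxb genes among them. Both motifs read the same on either strand, and the MAX E-box named above is one form of the general one. The MAX E-box lay in none of the 3 Hoxb windows and in 4 of the 24 HOX windows, those of Hoxd1, Hoxd10, Hoxd11 and Hoxd13, against 6.02% of all 32851 windows. These 4 genes had 1 read in all libraries together, a read of Hoxd10. A general E-box lay in 17 of the 24 HOX windows and in 66.2% of all windows. The 250 bases of Hoxb4 held 1 general E-box, those of Hoxb1 held 3 and those of Hoxb8 held 0. No match says only that these letters are not in this window.

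MicroRNA genes sit inside the Hox clusters, and the one within the active stretch is Mir10a, which lies inside the span of Hoxb3. Its mature form and that of its Hoxd counterpart share the seed (bases 2 to 8, in capitals), as RefSeq lists them for GRCm38.p6.
mmu-miR-10a-5p: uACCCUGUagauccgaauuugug
mmu-miR-10b-5p: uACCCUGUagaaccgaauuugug
Mir10a had 2 reads over the 8 libraries, and Mir10b, Mir196a-1, Mir196a-2, Mir196b and Mir615 had none. The kit is not one for small RNA, so these counts say nothing of the level of the mature microRNAs.

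Hoxb2, Hoxb3 and Hoxb4 fell in MaxKO by 23.7%, 29.6% and 26.8%, Hoxb5 next to them did not pass the threshold, and no HOX gene was called higher. Only Hoxb2 to Hoxb8 passed the filter on low counts, and of these 7 genes 3 were lower, 0 higher and 4 not past the threshold (edgeR, p adjusted by Benjamini and Hochberg over all tested genes, threshold 0.05). At an unadjusted p under 0.05, edgeR gave 4 lower and 0 higher, and DESeq2 and limma-voom also called 0 higher. Of all 13358 genes tested, 12.2% were lower and 10.9% higher, or 23.1% in either direction. That is 1457 higher and 1627 lower genes, and with upper-quartile scaling the split was 1160 higher and 1965 lower. The median log2 fold change was -0.39 over the 7 HOX genes and 0.00 over all genes. The summed level of Hoxb2 to Hoxb8 was 344, 314, 322 and 336 CPM in MaxKO libraries 1 to 4 and 399, 454, 432 and 382 CPM in Ctrl libraries 1 to 4. Every MaxKO library lay below every control in this sum, which Hoxb5 led with 30.7% of the reads. In RNA from a whole culture, fewer cells that express a gene and less RNA per cell cannot be told apart.

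Hoxb2, a gene of the hindbrain and of the anterior trunk, was at 69.8, 64.7, 66.4 and 71.7 CPM in MaxKO libraries 1 to 4 and at 87.1, 93.4, 86.3 and 90.6 CPM in Ctrl libraries 1 to 4. The groups did not overlap, and the spread within each was small. The means were 68.2 ± 3.20 and 89.4 ± 3.31 CPM (SD, n = 4 each), a log2 fold change of -0.39 (SE 0.07, edgeR adjusted p = 0.00179). Values of the groups did not overlap for 26.4% of all tested genes, and for 4 of the 7 HOX genes.

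Hoxb3 followed the same pattern with the largest change of the 3. It stood at 50.4, 53.5, 57.5 and 63.3 CPM in MaxKO libraries 1 to 4 and at 78.1, 86.1, 74.1 and 80.4 CPM in Ctrl libraries 1 to 4, so that the groups did not overlap. The means of 56.2 ± 5.55 and 79.7 ± 5.01 CPM (SD, n = 4 each) gave a log2 fold change of -0.51 (SE 0.09, edgeR adjusted p = 0.00156). Hoxb4, known for expanding blood stem cells when overexpressed, was at 74.3, 59.2, 62.2 and 65.5 CPM in MaxKO and at 80.4, 99.0, 98.0 and 79.8 CPM in Ctrl, in library order. MaxKO library 1 came close to controls 1 and 4 without reaching them. The means were 65.3 ± 6.55 and 89.3 ± 10.6 CPM (SD, n = 4 each), with a log2 fold change of -0.45 (SE 0.10, edgeR adjusted p = 0.00739). These 3 calls held in each of the 8 fits that left out 1 library, with adjusted p up to 0.0104 for Hoxb2, 0.00892 for Hoxb3 and 0.0318 for Hoxb4.

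Hoxb5, the most abundant HOX gene, was at 120, 108, 107 and 102 CPM in MaxKO libraries 1 to 4 and at 112, 125, 133 and 112 CPM in Ctrl libraries 1 to 4. MaxKO library 1 lay above controls 1 and 4, and the groups overlapped. The log2 fold change was -0.14 (SE 0.08, 95% interval -0.32 to 0.03, edgeR adjusted p = 0.230). Its share of the reads of Hoxb2 to Hoxb9, which does not depend on library scaling, was 30.3% to 34.8% in MaxKO and 27.4% to 30.7% in Ctrl, again with an overlap. The intervals of Hoxb2 (-0.54 to -0.24), Hoxb3 (-0.69 to -0.32) and Hoxb4 (-0.67 to -0.23) overlap that of Hoxb5, and whether Hoxb5 changed less than these genes was not tested.

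**Figure D2:**
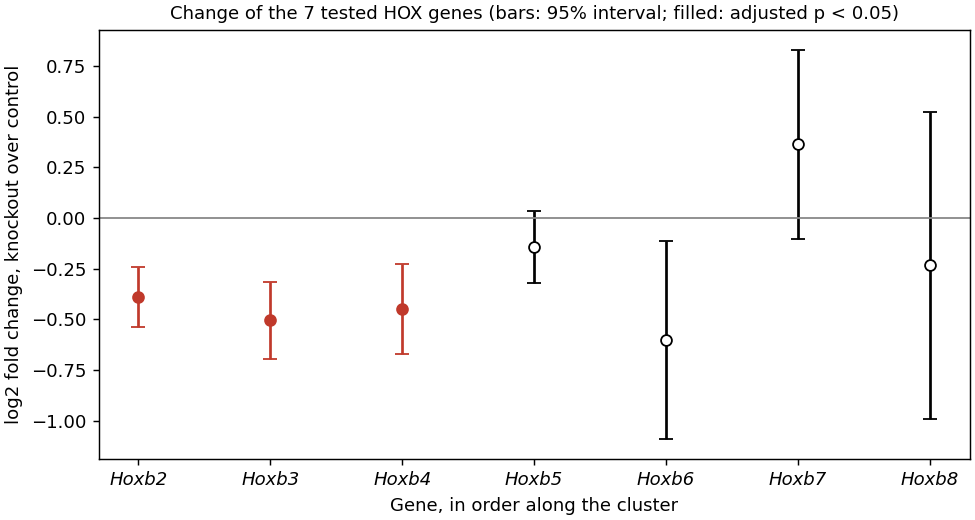
Log2 fold change of MaxKO over Ctrl for the 7 HOX genes that passed the count filter, in their order along the cluster, with 95% intervals from edgeR; filled red points have an adjusted p under 0.05. Hoxb2, Hoxb3 and Hoxb4 lie between -0.39 and -0.51, and the intervals widen from Hoxb6 onward.

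On the posterior side of the stretch the controls disagreed among themselves. Hoxb6 was at 14.03, 13.2, 13.5 and 15.6 CPM in MaxKO libraries 1 to 4, but at 24.9, 29.7, 18.9 and 12.1 CPM in Ctrl libraries 1 to 4. Controls 1 to 3 lay above all MaxKO libraries and control 4 below them. The difference was not past the threshold with all libraries (log2 fold change -0.60, SE 0.22, edgeR adjusted p = 0.0734), but it was without control 4 (-0.80, adjusted p = 0.00232), without control 3 (-0.66, adjusted p = 0.0495) and in DESeq2 (adjusted p = 0.0324). With only controls 3 and 4 kept it was -0.13 (adjusted p = 0.615).

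Hoxb7 went the other way in value. It stood at 7.04, 6.76, 6.77 and 7.52 CPM in MaxKO and at 6.44, 6.61, 5.85 and 2.97 CPM in Ctrl, in library order. All 4 MaxKO libraries lay above all 4 controls, but 3 of the controls only narrowly below. The log2 fold change of 0.36 (SE 0.21) was not past the threshold (edgeR adjusted p = 0.254), was 0.16 without control 4 (adjusted p = 0.392) and passed with only controls 3 and 4 kept (0.69, adjusted p = 0.0495). As a share of the reads of Hoxb2 to Hoxb9, Hoxb7 took 2.05% to 2.24% in MaxKO and 0.779% to 1.61% in Ctrl. Hoxb2 to Hoxb5 held on average 90.7% of these reads in MaxKO and 90.8% in Ctrl. Their summed level was lower in MaxKO (mean 299 against 379 CPM), so a gene at an unchanged level would also gain in share.

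Hoxb8 was at 8.55, 8.95, 9.01 and 10.7 CPM in MaxKO libraries 1 to 4 and at 9.86, 14.4, 16.2 and 3.64 CPM in Ctrl libraries 1 to 4. Control 4 lay below every MaxKO library and controls 2 and 3 above every one. The log2 fold change was -0.23 (SE 0.34, edgeR adjusted p = 0.674), with a 95% interval from -0.99 to 0.52. It was -0.53 without control 4 (adjusted p = 0.0392) and 0.00 without control 3 (adjusted p = 0.993).

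Hoxb9, the most posterior Hoxb gene with reads, is known as a gene of the thorax and the lumbar region. It had 1, 1, 2 and 4 reads in MaxKO libraries 1 to 4 and 35, 23, 17 and 1 in Ctrl libraries 1 to 4, or 8 reads against 76. Controls 1 to 3 stood far above MaxKO, and control 4 was as low as the knockouts. The gene did not pass the count filter. Without that filter the log2 fold change was -3.08 (SE 0.80, edgeR adjusted p = 0.0206, with 8.20% of all 19124 genes lower), a fitted value that rests on few reads. In some fits with fewer libraries Hoxb9 passed the filter, but only through the high controls, so these fits are no support for its difference.

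**Figure D3:**
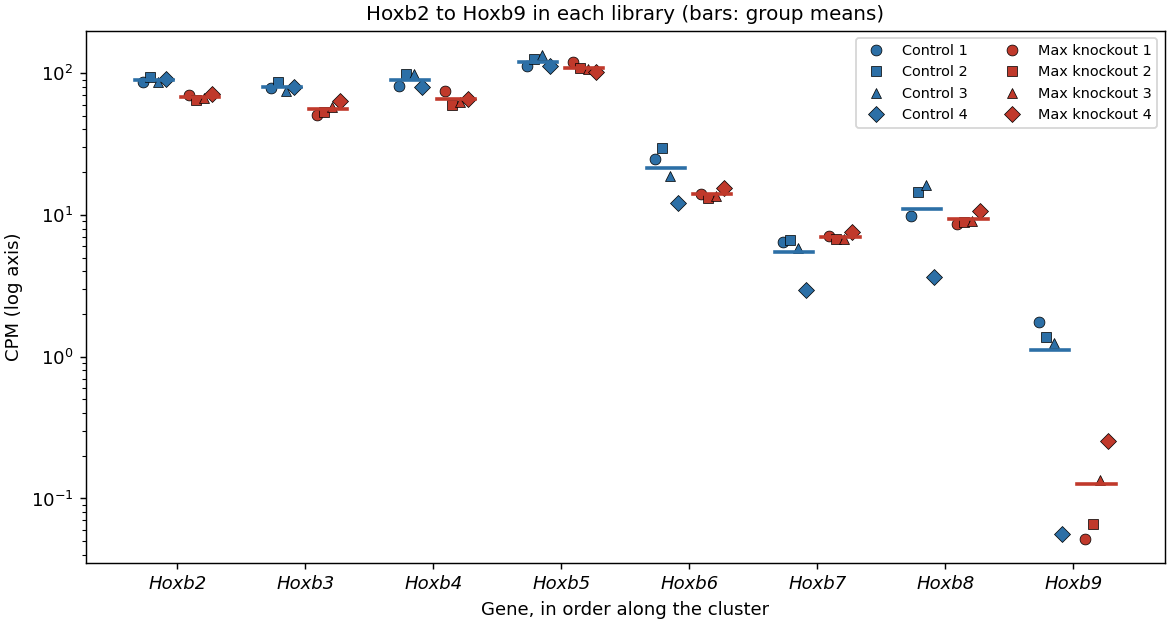
Level of Hoxb2 to Hoxb9 in each of the 8 libraries in CPM on a log axis, with Ctrl in blue, MaxKO in red, a marker shape for each library number and bars for the group means. MaxKO libraries lie below the controls for Hoxb2 to Hoxb4, and control 4 (blue diamond) drops away from the other controls from Hoxb6 to Hoxb9.

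Control 4 departed from the other controls at the posterior genes of the stretch. Relative to the mean of the other 3 controls, it was at 1.02 for Hoxb2, 1.01 for Hoxb3, 0.86 for Hoxb4 and 0.91 for Hoxb5. It was then at 0.49 for Hoxb6, 0.47 for Hoxb7, 0.27 for Hoxb8 and 0.038 for Hoxb9. Hoxb6 to Hoxb9 made up 4.92% of the reads of the stretch in control 4, against 9.71% to 11.4% in the other controls and 8.63% to 10.1% in MaxKO. For Hoxb6 to Hoxb8 the 4 MaxKO libraries were more alike, with a coefficient of variation of 10.3% for Hoxb8 against 50.7% in Ctrl and of 5.08% for Hoxb7 against 31.0%. For Hoxb2 the values were 4.69% and 3.70%. Without control 4, 5 of the 7 genes Hoxb2 to Hoxb8 were lower (14.1% of all genes lower and 27.8% called in either direction), namely Hoxb2, Hoxb3, Hoxb4, Hoxb6 and Hoxb8. The same 5 genes were lower with only controls 1 and 2 kept (22.6% lower, 44.6% in either direction), and with only controls 3 and 4 kept 3 were lower (11.3%) and 1 higher.

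**Figure D4:**
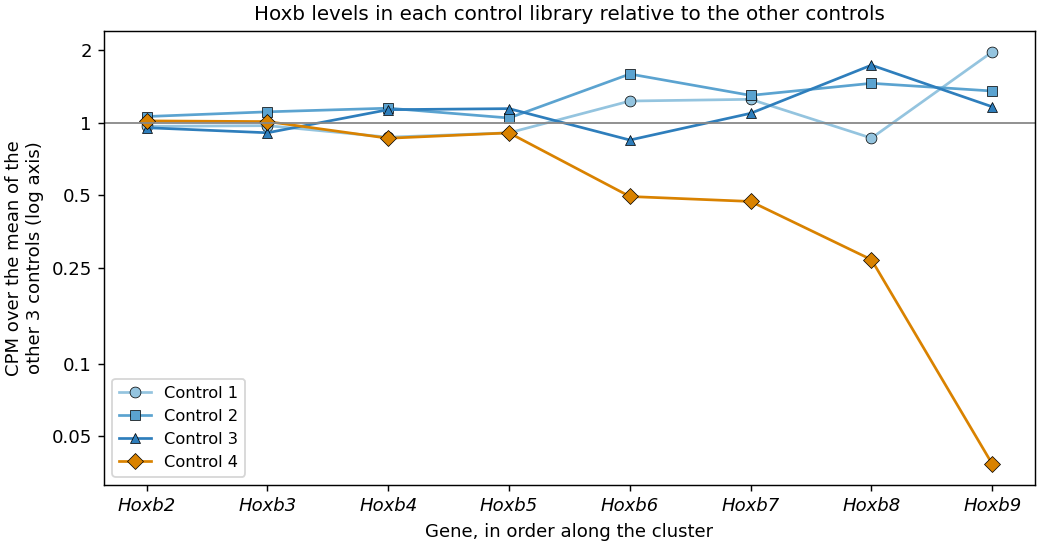
Level of Hoxb2 to Hoxb9 in each control library divided by the mean of the other 3 controls, on a log axis, in gene order along the cluster. Control 4 (orange) stays between 0.86 and 1.02 up to Hoxb5 and falls to 0.038 at Hoxb9, whereas controls 1 to 3 stay between 0.85 and 1.97.

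Genes beside or in the wider surroundings of the Hox clusters were compared as well. Of 10 tested genes from a list of 15, 1 rose and 3 fell (median log2 fold change -0.02, against 10.9% of all genes higher and 12.2% lower). The tested members are given because of their place, not because their share stands apart. Of these, only Skap1, Skap2, Calcoco1, Smug1 and Mtx2 are the coding genes next to a cluster. Skap1, an adaptor of T cell receptor signalling and the first coding gene beyond Hoxb1, moved opposite to Hoxb. It was at 127, 110, 117 and 110 CPM in MaxKO and 66.1, 62.4, 77.4 and 85.9 CPM in Ctrl, in library order, and every MaxKO library lay above every control (log2 fold change 0.67, SE 0.10, edgeR adjusted p = 0.000829). On the other side of Hoxb, Ttll6 had too few reads to be tested. Skap2, the relative of Skap1 beside the silent Hoxa cluster, fell from 4.08 ± 0.946 CPM in Ctrl to 0.980 ± 0.640 CPM in MaxKO (SD, n = 4; log2 change -2.07). It had 62 reads in MaxKO and 283 in Ctrl and passed the count filter only through the controls, where it is high. Its fit, counted among the 3 that fell, is therefore no support for its difference. Mtx2, a mitochondrial import gene beside the silent Hoxd cluster, fell from 33.5 ± 4.04 CPM in Ctrl to 17.9 ± 2.07 CPM in MaxKO (SD, n = 4; log2 change -0.90, SE 0.12). For Atf2, the log2 fold change was -0.27, and leaving out 1 library ended the call in 4 of 8 cases (highest adjusted p 0.0725 in edgeR). Calcoco1 (-0.10) and Smug1 (0.13), on either side of Hoxc, and Lnp (-0.14), Hibadh (0.07), Cbx5 (0.13) and Atp5g2 (0.19) were not past the threshold.

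Among the 15 tested genes of the retinoic acid pathway, the signal that switches on anterior HOX genes in embryos, 8 fell, 0 rose and 7 were not past the threshold, with a median log2 fold change of -0.68 (0.00 over all genes, of which 12.2% fell). At an unadjusted p under 0.05, edgeR gave 0 higher, and DESeq2 and limma-voom also called 0 higher, whereas 1 was higher with only controls 3 and 4 kept (Aldh1a1). Leaving out any 1 library left 7 to 9 lower. The 8 include Cyp26b1, which passed the count filter only through the controls. With the filter of 1 CPM in 4 libraries it was not tested, and 7 of 14 genes fell. Aldh1a2 makes retinoic acid from retinal and was the most abundant of the 8. It was at 38.1, 41.0, 40.6 and 43.2 CPM in MaxKO libraries 1 to 4 and at 74.6, 74.7, 67.9 and 74.7 CPM in Ctrl libraries 1 to 4. The groups were far apart and tight, with a log2 fold change of -0.84 (SE 0.07, edgeR adjusted p = 2.77e-05). The other retinaldehyde dehydrogenase genes Aldh1a1 (-0.05) and Aldh1a3 (0.14) were not past the threshold, although both were abundant, with lowest libraries of 64.1 and 48.7 CPM.

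The retinoic acid receptor genes Rara, Rarb and Rarg were lower as well. Rarb, a receptor gene that is a classic target of the signal, was at 1.25, 1.79, 2.17 and 1.79 CPM in MaxKO and 6.79, 7.81, 7.90 and 3.03 CPM in Ctrl, in library order. The groups did not overlap, and control 4 was again the lowest control (log2 fold change -1.87, SE 0.30, edgeR adjusted p = 0.00112, and -2.11 without control 4). Dhrs3, which turns retinal back into retinol, fell from 6.60 ± 1.99 CPM in Ctrl to 1.64 ± 0.536 CPM in MaxKO (SD, n = 4; log2 change -1.99). The receptor gene Rarg (-0.68) and the retinol uptake gene Stra6 (-0.80) also fell, as did Rara (-0.70), whose call was lost in 5 of 8 cases when 1 library was left out (highest adjusted p 0.112 in edgeR). Cyp26b1, which degrades retinoic acid, had 14 reads in MaxKO and 152 in Ctrl, of which controls 1 and 2 held most (3.42 and 3.61 CPM against 0.804 and 0.729 CPM in controls 3 and 4). Its log2 fold change of -3.28 (SE 0.67, edgeR adjusted p = 0.00473) was -1.79 with only controls 3 and 4 kept (adjusted p = 0.0215). Cyp26b1 passed the count filter only through the controls, where it is high, so these fits are no support for its difference. The partner receptor genes Rxra (0.07) and Rxrb (-0.20) were not past the threshold.

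**Figure D5:**
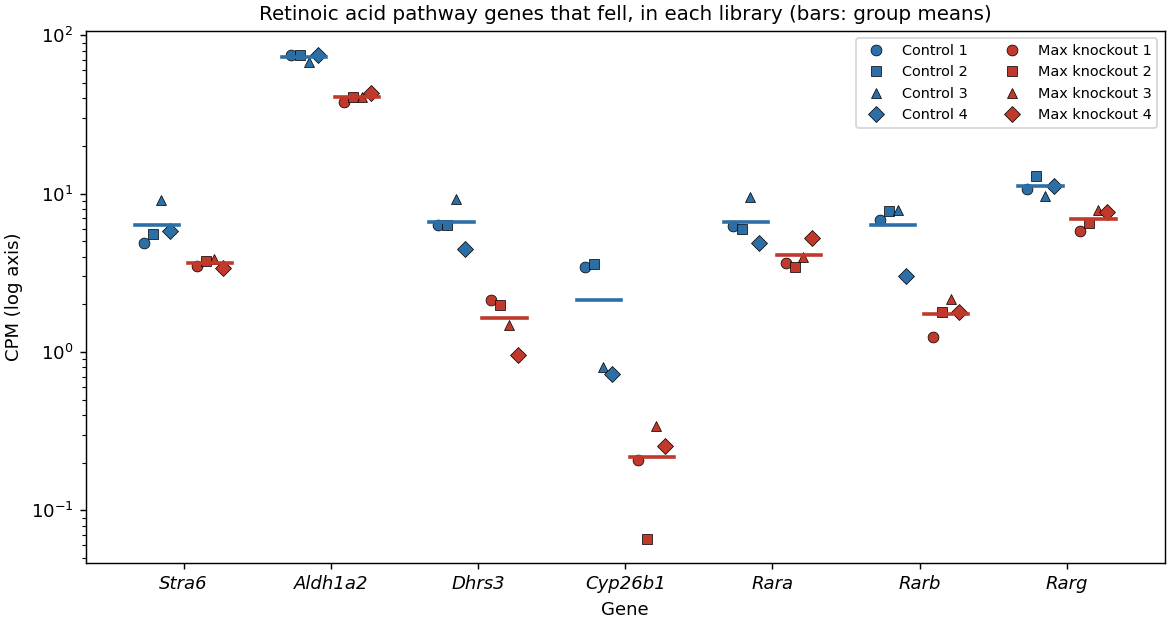
Level of 7 of the retinoic acid pathway genes that fell, in each library, in CPM on a log axis, with Ctrl in blue, MaxKO in red and bars for group means. MaxKO lies below every control for 6 of these 7 genes, and for Rara the highest MaxKO library overlaps the lowest control. The 7 genes were taken from those called lower, so this count does not describe the pathway as a whole. Over all tested genes, values of the groups did not overlap for 26.4%, in either direction.

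The cofactors and chromatin regulators of the HOX genes are given beside the shares over all genes, of which 10.9% rose and 12.2% fell. Of 11 tested TALE homeodomain genes, which include the PBX and MEIS partners of HOX proteins, 1 rose, 1 fell and 9 were not past the threshold (median log2 fold change -0.11). Meis3 fell from 28.4 ± 4.23 CPM in Ctrl to 19.4 ± 0.961 CPM in MaxKO (SD, n = 4; log2 change -0.55).

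Of 23 Polycomb genes, 2 rose and 4 fell (median log2 fold change -0.03), near the 23.1% of all genes called in either direction. Over the alternatives other than leaving out single libraries, 0 to 7 rose and 2 to 8 fell. The PRC1 subunit gene Cbx8 fell from 19.2 ± 2.57 CPM in Ctrl to 12.9 ± 1.20 CPM in MaxKO (SD, n = 4; log2 change -0.57) and the PRC2 accessory gene Mtf2 fell by 0.26 on the log2 scale. The calls of Ezh1 (0.30) and Phc2 (-0.24) were each lost in 5 of 8 cases when 1 library was left out (highest adjusted p 0.107 and 0.118 in edgeR). Of 17 genes of the MLL and DOT1L complexes and the H3K27 demethylases, 1 rose, the methyltransferase gene Dot1l (0.31), and its call was lost in 5 of those 8 cases (highest adjusted p 0.0779). In edgeR, 0 of the 17 fell, with 0 lower at an unadjusted p under 0.05, and DESeq2 and limma-voom also called 0 lower, whereas 1 fell with only controls 1 and 2 kept and 1 without MaxKO library 4.

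Upstream regulators and ParaHox genes, the sister family of the HOX genes, were mostly too low to test, with 7 of 16 past the count filter. Of these 7, 1 rose, 1 fell and 5 were not past the threshold (median log2 fold change -0.03). Of all genes tested, 10.9% rose and 12.2% fell, so these counts do not set the list apart. Gdf11, a signal that helps to start posterior HOX genes, fell from 3.84 ± 0.898 CPM in Ctrl to 2.05 ± 0.301 CPM in MaxKO (SD, n = 4; log2 change -0.92, edgeR adjusted p = 0.0101, and -0.62 with adjusted p = 0.0866 with only controls 3 and 4 kept). Cdx2, an activator of posterior HOX genes singled out after its values were seen, had 21, 8, 12 and 12 reads in MaxKO libraries 1 to 4 and 0, 2, 2 and 6 in Ctrl libraries 1 to 4. Without the count filter its log2 fold change was 2.39 (SE 0.58, edgeR adjusted p = 0.00835, with 15.4% of all genes past the threshold in either direction and 1369 of 19124 higher). This fitted value rests on few reads, 53 in MaxKO and 10 in Ctrl, of a gene chosen for its values. It is therefore no support for the difference.

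Markers of other cells were also compared between the groups, and their part in the HOX results was not tested. The summed level of the 10 fibroblast markers was 50.3 to 66.5 CPM in MaxKO and 26.8 to 46.2 CPM in Ctrl and was made up mainly of Dcn (log2 fold change 0.77). Other members went the other way, namely Pdgfra (-2.37, edgeR adjusted p = 0.00423, 16 reads in MaxKO against 88 in Ctrl), Thy1 with 2 reads against 40 and Col1a1 with 8 against 22, each without overlap between the groups. Pdgfra passed the count filter only through the controls, where it is high, so its fit is no support for the difference. In every library Col1a1, Col1a2, Col3a1, Pdgfrb, Thy1 and Postn stayed under 1 CPM and Lum was at 0. The endothelial list summed to 595 to 701 CPM in MaxKO and 258 to 422 CPM in Ctrl, which was almost all Vwf, with Cdh5, Kdr, Tek, Tie1 and Cldn5 under 1 CPM in every library and Emcn at 0. The haematopoietic list summed to 2.45 to 4.27 and 2.97 to 5.99 CPM and the other lung epithelial list to 11.1 to 12.7 and 10.5 to 13.8 CPM, in MaxKO and Ctrl.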

How the data were processed

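Per the labels' protocols, TRIZOL-extracted total RNA (500 ng) went into the NEB Ultra RNA kit. The values are raw read counts by gene symbol, used as the authors deposited them. The submitters' processing notes name bcl2fastq 1.8.4, TopHat2 2.0.12, HTSeq 0.6.1 and the build mm9. The sources used here do not give the annotation or the strand setting. Reads in no gene (18.5% to 23.4% outside exons) were left out of library sizes.

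Genes were kept with filterByExpr (13358 of 23284), scaled with TMM and tested with edgeR 4.0.16 in R 4.3.3 (quasi-likelihood F test, robust, group as the only term, Benjamini-Hochberg adjustment over all tested genes, threshold 0.05). The procedure was tested on simulated counts. Each standard error is the size of the log2 fold change over the square root of F. Exon lengths came from GENCODE M21 transcripts matched to RefSeq.

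The HOX members, the context lists and the alternatives were chosen with earlier results of these data known. All tested HOX genes and all tested genes of the list around the clusters are named, and of every other list the called genes with the lowest p, up to 4. Cyp26b1, Rara, Rarg, Stra6, Cdx2 and the members of lists that did not pass the threshold were named after their values were seen. Tried instead were DESeq2 1.42.0, limma-voom (limma 3.58.1), other scaling (RLE, upper quartile), other filters (none, or 1 CPM in 4 libraries), a fit without robust estimation, plain library totals for summed levels, a replicate block, leaving out each library, and keeping only controls 1 and 2 or 3 and 4. Some genes that the naming rule would include are not reported here.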

Additional observations from a re-analysis of the deposited data

Results flagged for a closer look

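The summed level of Hoxb6 to Hoxb8 in MaxKO library 4 was 33.8 CPM, whereas the other 3 MaxKO libraries lay between 28.9 and 29.6 CPM. Its gap to the nearest of the others took 0.854 of the range of the group, above Dixon's 95% critical value. Of 22 groups of 4 values examined, this was the 1 that stood out, and chance gives about 1 in 20.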

How the results depend on the processing

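The falls of Hoxb2, Hoxb3 and Hoxb4 kept their direction and stayed past the threshold in all 18 alternative fits, with log2 fold changes of -0.44 to -0.37, -0.57 to -0.46 and -0.53 to -0.40. The number of HOX genes lower in MaxKO was 3 in most fits, 4 without the filter and in DESeq2, 6 with only controls 1 and 2, and 3 to 6 when single libraries were left out. The counts of 6 include Hoxb9, which passed the filter only through the controls in which it is high. The number higher was 0 in all of these and 1 with only controls 3 and 4 (Hoxb7, 0.69). Hoxb6 passed the threshold in DESeq2 (-0.60) and with only controls 1 and 2 (-0.95), and ranged from -0.80 to -0.41 over the fits without 1 library. Hoxb8 passed with only controls 1 and 2 (-0.38) and ranged from -0.53 to 0.0045 without 1 library, the latter, a sign change, without control 3. Hoxb7 ranged from 0.16 to 0.46 and Hoxb5 from -0.20 to -0.09. The summed level of Hoxb6 to Hoxb8, a log2 ratio of -0.32, was 0.030 with only controls 3 and 4. Over all genes, 2987 were higher and 3081 lower with only controls 1 and 2, and 963 to 1846 higher and 1139 to 1929 lower without 1 library. Upper-quartile scaling moved the split from 1457 higher and 1627 lower to 1160 and 1965 and the median of all genes to -0.05. In the context lists together, 6 of 83 tested genes were higher and 17 lower, beside 10.9% and 12.2% of all genes. With only controls 1 and 2 the counts were 17 and 28 of 86, beside 44.6% of all genes called in either direction and 22.6% lower. Without 1 library they were 3 to 9 and 14 to 20. The cause of these changes was not tested. With a replicate block, 3 HOX genes were lower, Hoxb2, Hoxb3 and Hoxb4 (log2 fold changes of -0.39, -0.51 and -0.45), and Hoxb5 (-0.14), Hoxb6 (-0.54), Hoxb7 (0.40) and Hoxb8 (-0.11) were not past the threshold; 1208 genes were higher and 1324 lower in all, 5 and 13 in the context lists. Same-numbered libraries did not deviate together (correlations of -0.20 to 0.00), so the numbers were not used as pairs. Depth limits Hoxb9 and the 31 silent HOX genes, where 1 read was worth 0.0505 to 0.0729 CPM.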
